A study of Mus musculus with 8 samples.

Results

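A group of 10 genes of mechanically gated and acid-sensing channels and their partners were followed in mouse dorsal root ganglia, which house the cell bodies of the sensory neurons of limbs and trunk: Piezo1, Piezo2, Asic1, Asic2, Asic3, Tmem63a, Tmem63b, Tmem120a, Stom and Stoml3. They were taken by gene symbol from the deposited expression table, which held 40800 distinct gene identifiers, and all 10 were found there once. RNA was sequenced from 4 C57BL/6 wild-type mice (replicates 1, 3, 4 and 8) and 4 mice with a homozygous Tmem184b gene trap, C57BL/6 in background (replicates 1, 2, 3 and 4), all 6 months old. Such a trap is inserted DNA that diverts splicing and so shortens the transcript. The labels name no Cre driver or tissue restriction, and no sex, litter or batch.

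Touch and pain begin when a channel in the ending of a sensory neuron opens. PIEZO2 is the main channel for light touch and for the sense of limb position, and PIEZO1 is its relative in blood vessels, red blood cells and other tissues. Acid-sensing ion channels are trimers built from ASIC subunits that let sodium in when protons accumulate, as in ischaemic or inflamed tissue, and stomatin-like proteins bind to such channels in the membrane and tune their gating.

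Libraries held 6183618 to 7983822 reads, so that 1 read was worth 0.125 to 0.162 CPM (reads scaled to library size). The trapped gene checked the labels. Tmem184b (ENSMUSG00000009035) was at 164 to 182 CPM in the wild types and at 5.24 to 8.29 CPM in the mutants, a log2 difference of -4.64 (SE 0.113; limma adjusted p = 2.57e-12; exact two-sided permutation p = 0.0286, the smallest that 4 against 4 samples allow). Pan-neuronal markers, 7 genes such as Uchl1 and Tubb3, were all present, with a mean of 9.78 to 9.91 log2 CPM in wild-type ganglia compared with 9.75 to 9.83 in the mutants. Skeletal muscle transcripts differed widely between dissections, at a summed level of 2.22 to 30.1 CPM in wild-type ganglia compared with 9.11 to 143 CPM in the mutants.

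Of the 10 genes, 4 differed between genotypes. Asic2, Tmem63a and Stom were lower in the mutant, at 71.7%, 69.9% and 73.5% of the wild-type level, and Asic3 was higher, at 123%. Piezo2, Piezo1, Asic1, Tmem63b and Tmem120a were not called, and Stoml3 was too low to test. A gene was called when its adjusted p in a limma fit over all tested genes was under 0.05. By that rule 820 of 15030 tested genes (5.46%) were called, 2.81% higher and 2.64% lower in the mutant. Among the 9 members tested, 1 was called higher and 3 lower, and the same 4 were the ones whose mutant and wild-type samples did not overlap, as was the case for 12.4% of all tested genes (7.50% higher and 4.92% lower in every mutant). The 9 had at least 78 reads in every library, so none entered the test through 1 genotype alone. The median difference of the 9 was -0.01 on the log2 scale, against 0.066 over all tested genes. With samples centred on their median gene, the split of called members was 0 higher and 3 lower, and that of all genes 204 higher and 706 lower.

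**Figure D1:**
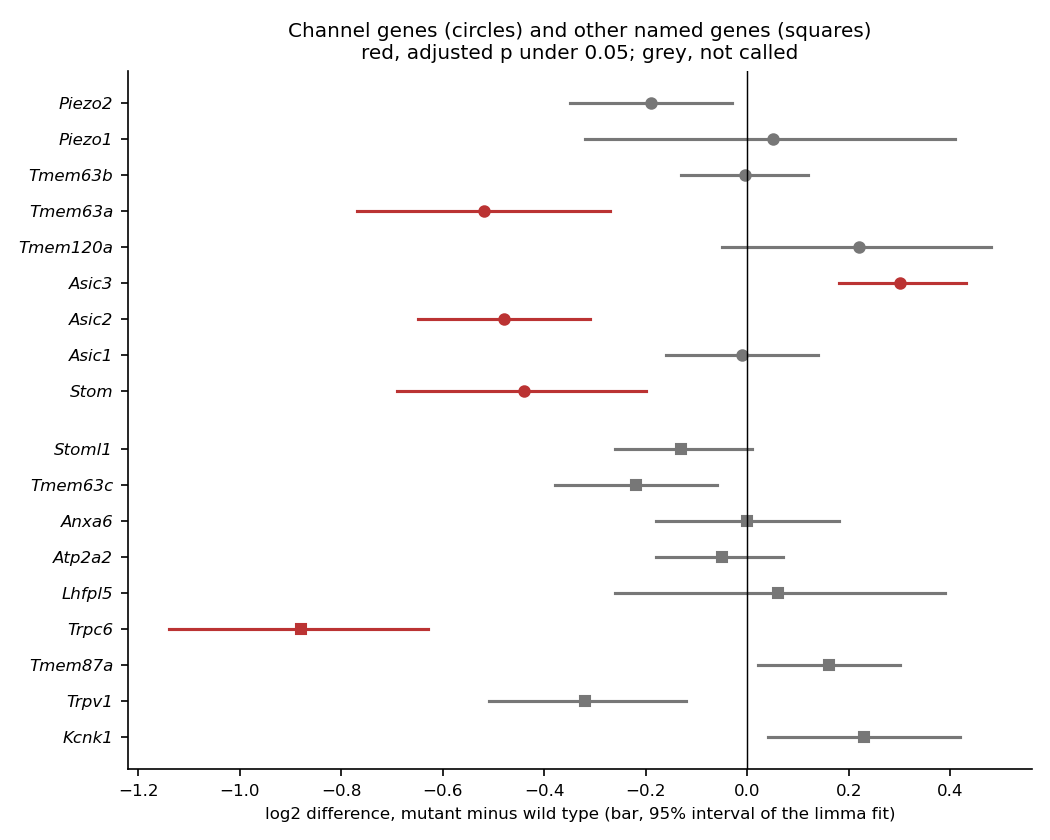
Log2 difference between mutant and wild type (horizontal axis) for the 9 channel genes tested (circles) and 9 further genes of mechanical or acid sensing (squares); bars are 95% intervals of the limma fit, and red marks an adjusted p under 0.05. Tmem63a, Asic2, Stom and Trpc6 are called below 0 and Asic3 above it. The intervals are not adjusted for the number of genes, and those of Piezo2, Tmem63c, Trpv1, Tmem87a and Kcnk1 also leave out 0 without a call.

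The stretches upstream of the 4 called genes are shown because these are the members that moved. Each is the part of a RefSeq promoter window (GRCm38.p6; 250 bases before to 50 after the start site) that lies before every annotated exon, so their lengths differ. Capitals mark whole matches, on either strand, to a GC box (GGGCGG), an E-box (CACGTG), a cAMP response element (TGACGTCA), a RUNX core (TGTGGT) or a TATA box (TATAAA).
Asic2, distal start, chr11:81968458-81968646, minus strand: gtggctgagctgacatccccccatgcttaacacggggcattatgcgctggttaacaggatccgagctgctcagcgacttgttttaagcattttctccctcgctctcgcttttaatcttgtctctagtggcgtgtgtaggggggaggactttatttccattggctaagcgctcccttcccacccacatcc
Asic3, chr5:24413201-24413391, plus strand: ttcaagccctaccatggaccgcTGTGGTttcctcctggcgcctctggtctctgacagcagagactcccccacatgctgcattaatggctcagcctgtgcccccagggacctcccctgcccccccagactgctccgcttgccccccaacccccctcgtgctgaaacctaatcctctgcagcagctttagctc
Tmem63a, chr1:180942268-180942343, plus strand: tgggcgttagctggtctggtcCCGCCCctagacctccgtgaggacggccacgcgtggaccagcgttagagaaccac
Stom, chr2:35337010-35337259, minus strand: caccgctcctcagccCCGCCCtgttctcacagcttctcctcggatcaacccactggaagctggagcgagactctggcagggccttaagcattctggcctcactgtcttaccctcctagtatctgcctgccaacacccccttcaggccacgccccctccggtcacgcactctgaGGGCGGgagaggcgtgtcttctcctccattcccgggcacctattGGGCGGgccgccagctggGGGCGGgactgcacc

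In the full windows, Stom held 4 GC boxes and Tmem63a 1, and the Asic3 window and both Asic2 windows held none. A GC box was present in 35.7% of the 32851 windows of all genes. The RUNX core occurred once each in the windows of Asic3 and Tmem63a, against 16.8% of all windows. The distal Asic2 window held 2 TATA matches, both past the bases shown, where 13.6% of all windows hold at least 1. None of the 4 genes had an E-box (7.15% of windows) or a cAMP response element (1.79%). CpG pairs numbered 33 for Tmem63a, 16 for Stom, 7 for Asic3, 9 for the distal Asic2 window and 16 for the proximal one, against a median of 7 over all windows. None of the 5 motifs was present in all 3 genes that fell. A match is a description of letters and not evidence of binding.

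The acid-sensing channel subunits moved in different directions. Asic2, whose product alters the acid sensitivity and recovery of the trimers it joins, fell. Its level (ENSMUSG00000020704; GRCm38 chromosome 11, 80880169 to 81968457) was 7.21, 7.05, 7.11 and 7.03 log2 CPM for wild types 1, 3, 4 and 8, against 6.49, 6.83, 6.69 and 6.47 in mutants 1 to 4. Every mutant was below every wild type. The group means were 137 ± 7.70 CPM in wild type against 98.6 ± 12.0 CPM in the mutant (SD, n = 4), and the log2 difference was -0.48 (SE 0.079; limma adjusted p = 0.00346). Asic2 has 2 annotated starts that give protein forms with different first parts, and a value per gene cannot tell them apart. Across 22 alternative analyses the call was lost without the mean-variance trend (adjusted p = 0.0696) and with no filter on low values (0.163).

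Asic3, the subunit most characteristic of peripheral sensory neurons and of muscle and skin afferents that respond to acid, rose. It lies on chromosome 5 (ENSMUSG00000038276; 24413392 to 24417835). The wild types were at 7.19, 7.28, 7.12 and 7.17 log2 CPM and the mutants at 7.59, 7.38, 7.50 and 7.50, so the lowest mutant was above the highest wild type. The means were 146 ± 6.90 CPM and 180 ± 10.6 CPM (SD, n = 4), a log2 difference of 0.30 (SE 0.060; limma adjusted p = 0.00994). The rise kept its direction in all 22 alternatives. It was not called after median centring (0.21; adjusted p = 0.111) or once GC-content trends were taken out of each sample (0.22; 0.0895), nor without the variance trend (0.0899) or without the filter (0.131).

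Asic1, a subunit found in both peripheral and central neurons (ENSMUSG00000023017; chromosome 15, 99670368 to 99701130), was at 73.5 to 82.0 CPM in wild-type ganglia compared with 69.8 to 84.5 CPM in the mutants. The groups overlapped throughout. The log2 difference was -0.01 (95% interval -0.16 to 0.14; limma adjusted p = 0.943), an interval that leaves out falls as large as that of Asic2.

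Ratios between subunits within a sample do not depend on library scaling. Asic1 minus Asic2 was -1.0, -0.73, -0.86 and -0.67 on the log2 scale in wild-type ganglia compared with -0.17, -0.60, -0.28 and -0.34 in the mutants, means of -0.82 ± 0.15 and -0.35 ± 0.18 (SD, n = 4). Asic3 minus Asic1 was 0.91 ± 0.08 in wild type against 1.22 ± 0.12 in the mutant. Neither ratio overlapped between genotypes. As Asic1 itself differed by only -0.01, both ratios restate the separations of Asic2 and Asic3 and add no further result. The share of all gene pairs without overlap was not computed. Asic3 minus Asic2, a pair set side by side after the values were seen, went from 0.09 ± 0.12 to 0.87 ± 0.25. Read counts of Asic3 and Asic2 were thus about equal in each wild-type ganglion sample, and Asic3 was ahead in each mutant. These ratios are descriptions and were not tested. No other annotated gene overlaps an exon of the 3 genes. In a sequence search, no transcript of another gene matched a member's transcript at 90% identity over 100 bases. The search read the same strand only and began from long exact matches, so antisense matches and those without a long exact run could be missed.

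**Figure D2:**
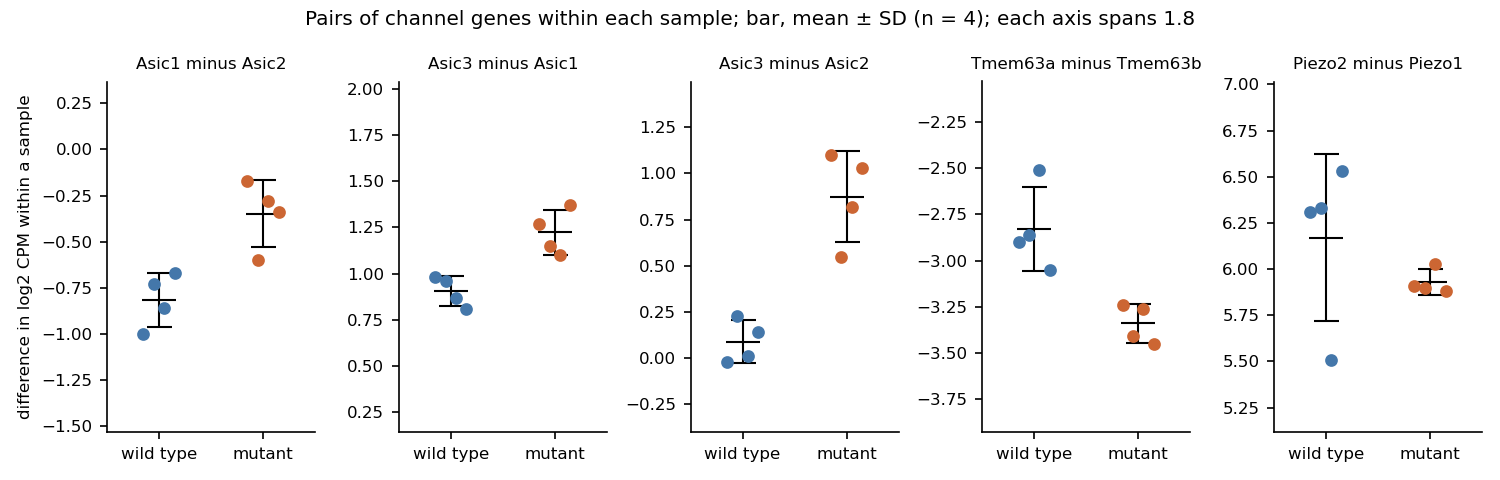
Difference in log2 CPM between pairs of channel genes within a sample (vertical axis), for the 4 wild types (blue) and 4 mutants (orange); bars are mean ± SD. The Asic1 minus Asic2, Asic3 minus Asic1 and Asic3 minus Asic2 values were higher in every mutant than in any wild type, Tmem63a minus Tmem63b was lower in every mutant, and Piezo2 minus Piezo1 overlapped.

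The PIEZO channels did not pass the test. Piezo2 (ENSMUSG00000041482; chromosome 18) was the most abundant member by reads, at 10.31, 10.30, 10.16 and 10.13 log2 CPM in wild-type ganglia compared with 10.08, 10.09, 10.16 and 9.81 in the mutants. Mutant 3 was level with wild type 4 and the other mutants were below all wild types. The means were 1199 ± 75.3 CPM and 1052 ± 109 CPM (SD, n = 4). The log2 difference was -0.19 (SE 0.074; 95% interval -0.35 to -0.03), with a limma p of 0.0211 before adjustment and an adjusted p = 0.148. The value was below 0 in all 22 alternatives, from -0.28 to -0.12, and called in none, with adjusted p from 0.081 to 0.682.

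Piezo1 (ENSMUSG00000014444; chromosome 8, 122481698 to 122551329) was at 4.0, 3.96, 4.65 and 3.60 log2 CPM in wild-type ganglia compared with 4.16, 4.19, 4.13 and 3.92 in the mutants. The spread among wild types, from 11.9 to 24.9 CPM, enclosed all mutants, and the difference was 0.05 (95% interval -0.32 to 0.41; limma adjusted p = 0.909). Its direction turned after median centring, at -0.05. Wild type 4, the highest in Piezo1, was also the highest wild type in the mean of 5 endothelial markers, at 3.71 log2 CPM where the other wild types had 3.04 to 3.25, and of 4 fibroblast markers, at 6.66 against 5.82 to 6.11. The same sample was the highest wild type for the satellite glia, myelinating Schwann cell and immune marker lists as well, at 7.35, 8.37 and 3.15. Among the mutants, replicate 4 had the highest fibroblast mean, at 6.76, and the lowest Piezo1. The part of these cells in the Piezo1 value was not tested. Exons of Ctu2 overlap Piezo1 on the other strand, and whether counting used the strand is not given in the sources used here.

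TMEM63 proteins are channels opened by membrane stretch or a fall in osmolarity, and both of those measured here have been studied mainly in glia and brain. Tmem63a (ENSMUSG00000026519; chromosome 1, 180942344 to 180975112) fell. It was at 5.06, 5.18, 5.40 and 4.84 log2 CPM in wild-type ganglia compared with 4.72, 4.64, 4.67 and 4.38 in the mutants. The highest mutant was just under wild type 8, the lowest wild type. The means were 34.9 ± 5.75 CPM and 24.1 ± 2.45 CPM (SD, n = 4), a log2 difference of -0.52 (SE 0.116; limma adjusted p = 0.0188). The call was lost without wild type 3 (-0.50; adjusted p = 0.0559), without mutant 4 (-0.44; 0.0520), without the variance trend (0.107) and without the filter (0.285). Without wild type 4, the highest in Tmem63a, the difference was -0.42 (limma adjusted p = 0.0392). Of the wild types, that sample was also the highest in Piezo1 and in the glial, endothelial, fibroblast and immune marker means given above. The part of these cells in the Tmem63a value was not tested. Exons of 2210411M09Rik overlap Tmem63a on the other strand.

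Tmem63b (ENSMUSG00000036026; chromosome 17, 45660171 to 45686905), the close relative, was at 236 to 263 CPM in wild-type ganglia compared with 228 to 264 CPM in the mutants. Its log2 difference was -0.004 (95% interval -0.13 to 0.12; limma adjusted p = 0.98). Exons of Gm16172 and Mrpl14 overlap it on the other strand. Tmem63a minus Tmem63b was -2.83 ± 0.23 in wild type against -3.34 ± 0.11 in the mutant, with no overlap. With Tmem63b level, that ratio restates the fall of Tmem63a. Tmem120a (ENSMUSG00000039886; chromosome 5, 135735485 to 135744448), a membrane protein named TACAN when it was proposed as a pain-related mechanical channel, a role that later work disputed, was at 12.4 to 16.8 CPM in wild-type ganglia compared with 14.6 to 19.7 CPM in the mutants. It differed by 0.22 (95% interval -0.05 to 0.48; limma adjusted p = 0.338), and the groups overlapped.

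Stom encodes stomatin, an integral membrane protein first known from red blood cells that binds ASIC subunits and reduces ASIC3 currents. It fell in the mutant (ENSMUSG00000026880; chromosome 2, 35313986 to 35336976). The wild types were at 4.64, 4.65, 4.63 and 4.40 log2 CPM and the mutants at 4.11, 4.29, 3.84 and 4.30. All mutants were below wild type 8, the lowest wild type. The means were 23.7 ± 1.90 CPM and 17.4 ± 2.53 CPM (SD, n = 4), a log2 difference of -0.44 (SE 0.116; limma adjusted p = 0.0385). Of the 4 calls this was the one lost most often. It was called in 14 of 22 alternatives. The call was lost without any 1 of wild types 1, 3 and 4 (-0.42, -0.42 and -0.43, adjusted p = 0.109, 0.103 and 0.0659) or mutants 1 and 3 (-0.44 and -0.34, adjusted p = 0.0857 and 0.0761). Xist was at 7.72 to 8.25 log2 CPM in 5 samples and at most 0.37 in wild type 3 and mutants 3 and 4. This split was uneven between the genotypes, and it applies to every member and not to Stom alone. Asic2, Asic3 and Tmem63a kept their calls with Xist as a covariate (limma adjusted p = 0.00707, 0.0168 and 0.0319). With Xist as a covariate the Stom call was also lost (-0.44, adjusted p = 0.0575). The adjusted p was 0.117 without the variance trend and 0.297 without the filter, both at the same difference of -0.44. Of 5 red blood cell markers 4 were tested and 0 called, at a summed 30.5 to 85.0 CPM in wild-type ganglia compared with 50.7 to 107 CPM in the mutants.

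Stoml3, the stomatin-like protein of mechanoreceptors that sensitises PIEZO channels, was hardly detected. It had 0, 0, 0 and 1 reads in wild types 1, 3, 4 and 8 and 0, 3, 0 and 1 reads in mutants 1 to 4 (ENSMUSG00000027744; chromosome 3, 53488653 to 53508502). A count of 0 allows up to 3 reads, or 0.376 to 0.476 CPM in the libraries without a Stoml3 read. A difference between genotypes was not detectable at this depth. Such limits cover counting error only.

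**Figure D3:**
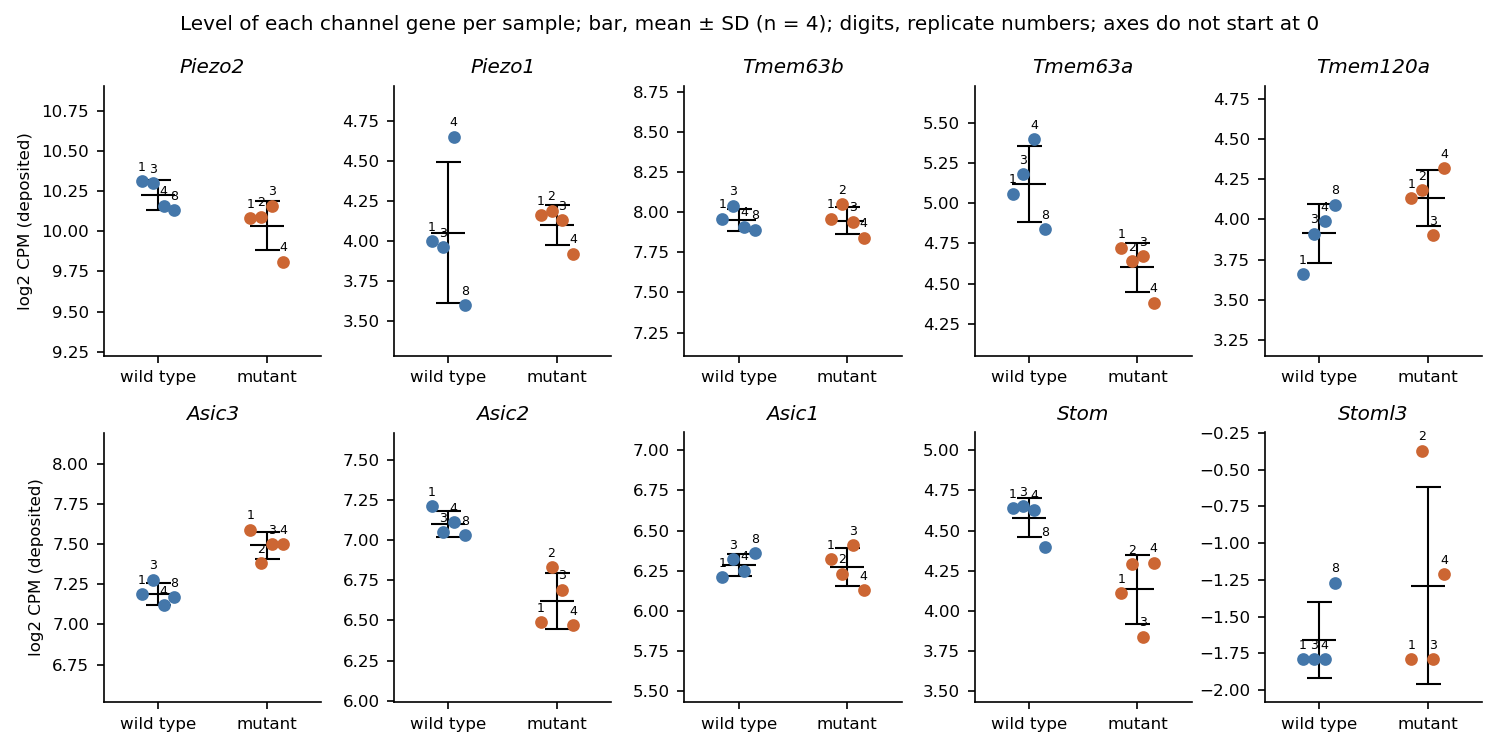
Deposited log2 CPM of each of the 10 genes (vertical axes, each with its own range) in the 4 wild types (blue) and 4 mutants (orange), labelled by replicate number; bars are mean ± SD. Asic2, Tmem63a and Stom are lower and Asic3 higher in all 4 mutants than in any wild type, and Stoml3 sits near the floor of -1.79.

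Per length of exon, the order in wild type was Piezo2 at 69.8 ± 4.39 CPM per kb (SD, n = 4), Asic3 at 60.2 ± 2.85, Tmem63b at 48.5 ± 2.30, Asic2 at 32.1 ± 1.81 and Asic1 at 13.5 ± 0.667. The ranges of these 5 did not overlap with their neighbours. Tmem120a at 8.60 ± 1.07, Stom at 8.37 ± 0.671 and Tmem63a at 7.76 ± 1.28 CPM per kb followed, each overlapping the next. Piezo1 was at 1.71 ± 0.561 and Stoml3 at 0.0147 ± 0.0294 CPM per kb. In the mutant Asic3, at 74.3 ± 4.38 CPM per kb, stood above Piezo2, at 61.3 ± 6.33. The order depended on the length used. With the longest transcript in place of all exons, Piezo2 led in both genotypes, at 112 ± 7.02 and 98.1 ± 10.1 CPM per kb, and overlapped Asic3 in the mutant. In wild type Tmem63b, at 75.3 ± 3.56 CPM per kb, then stood above Asic3, at 66.0 ± 3.12, with no overlap. Tmem63a, at 10.5 ± 1.74 CPM per kb, then came before Tmem120a and Stom, and its range overlapped that of Tmem120a.

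**Figure D4:**
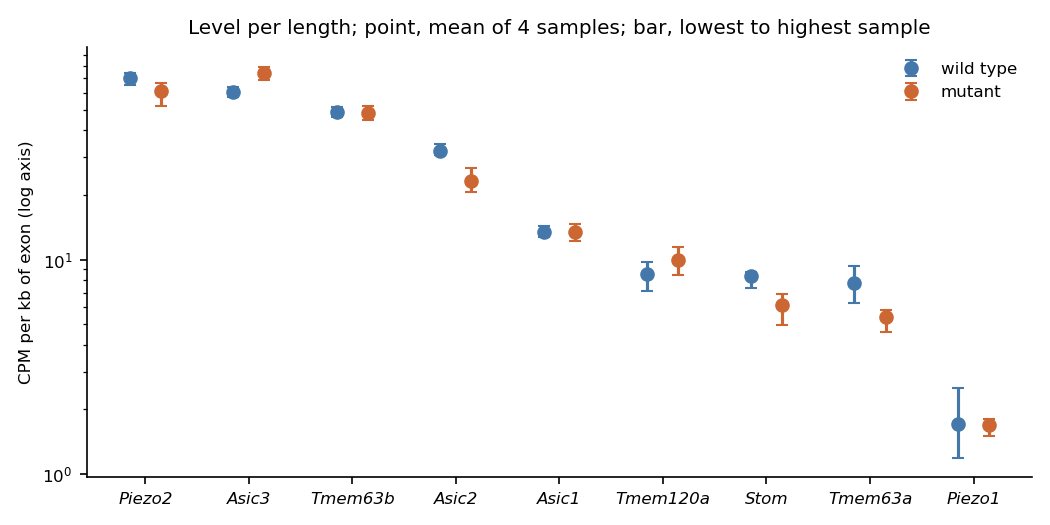
Level per kb of annotated exon (vertical log axis) for the 9 members with reads in every sample, ordered by the wild-type mean; points are means of 4 samples and bars run from the lowest to the highest sample. Levels run from Piezo1 at 1.71 to Piezo2 at 69.8 CPM per kb in wild type.

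Other genes of mechanical and acid sensing were read from 4 lists of 38 genes, of which 29 were tested. Of these 0 were called higher and 2 lower, where 2.81% of all tested genes were called higher and 2.64% lower. Their median log2 difference was 0.06, against 0.066 over all tested genes. Both called genes came from the 10 tested of 12 other mechanically gated channels. Trpc6 was at 4.69, 4.56, 4.42 and 4.65 log2 CPM in wild-type ganglia compared with 3.47, 3.79, 3.96 and 3.57 in the mutants, a fall of -0.88 (SE 0.121; limma adjusted p = 0.00112). It encodes a diacylglycerol-activated cation channel with a proposed part in mechanical responses of sensory neurons, and every mutant was below every wild type. Its call was lost without the filter (0.0877). In the same list Tmem87a differed by 0.16 (limma adjusted p = 0.175), with all mutants above all wild types, as for 7.50% of all tested genes. Lhfpl5, a subunit of the hair cell channel complex, differed by 0.06 (0.853).

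Of the 13 other proton sensors 10 were tested and 0 called. Trpv1, the capsaicin receptor that also opens to acid, was at 162 ± 12.1 CPM in wild type against 131 ± 18.4 CPM in the mutant (SD, n = 4), a difference of -0.32 (SE 0.091; limma adjusted p = 0.0579). It passed in 4 of 22 alternatives, among them median centring (-0.41; 0.0115). Kcnk1, a two-pore-domain potassium channel, differed by 0.23 (limma adjusted p = 0.143). Of the 7 other members of the families, 4 were tested and 0 called. Tmem63c was the most abundant, at 159 ± 11.9 and 137 ± 13.2 CPM, and differed by -0.22 (limma adjusted p = 0.0958). Its fall passed in 3 of 22 alternatives, among them median centring (-0.31; 0.0452). Stoml1, a stomatin-like protein that acts on ASIC1, differed by -0.13 (0.27). Asic5 had no reads in any library and Asic4 at most 7. Of 6 Piezo regulators, 5 were tested and 0 called, the most abundant being Anxa6 (annexin A6, -0.001; 0.997) and Atp2a2 (the calcium pump SERCA2, -0.05; 0.632).

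Markers of the neurons that could carry these channels are given beside the falls, since in whole ganglia fewer cells of a type and less RNA per cell cannot be told apart. The 7 markers of nonpeptidergic and itch neurons, such as Mrgprd and Il31ra, were all called lower. Their mean was 4.70 to 5.15 log2 CPM in wild-type ganglia compared with 2.69 to 3.15 in the mutants. The falls within this list were uneven. Nppb, Sst and Il31ra differed by -3.47, -4.06 and -3.28, and Mrgprd, Lpar3, Lpar5 and Mrgpra3 by -0.85, -0.72, -1.01 and -0.80. The 4 markers of A-delta low-threshold mechanoreceptors had none called, at 5.19 to 5.45 and 5.16 to 5.47 log2 CPM. Of 5 C low-threshold mechanoreceptor markers, Gfra2, which nonpeptidergic neurons also express, was called lower, and the means were 5.98 to 6.37 and 5.93 to 6.15. Of 8 markers of proprioceptors and large neurofilament neurons, Calb1 was called higher, and the means were 6.18 to 6.41 and 6.33 to 6.48. Peptidergic nociceptor markers, 4 genes with Calcb called lower, were at 7.54 to 7.60 and 7.42 to 7.63 log2 CPM. Markers of myelinating Schwann cells, with 0 of 5 called, were at 7.85 to 8.37 and 8.11 to 8.30. No marker in these lists was without reads in all libraries. The part of any of these cells in the changes of Asic2, Asic3, Tmem63a and Stom was not tested.

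The genes whose levels within each genotype ran closest to the members were found among 10118 other genes over the 8 samples, after each genotype's mean was subtracted. They were Kif1a for Piezo2 (Pearson r = 0.986, Spearman rho = 0.905), Gnb2 for Asic2 (0.978 and 0.952), Acaca for Asic3 (0.969 and 0.857), Pdcd6ip for Tmem63a (0.970 and 0.976) and Dhx8 for Stom (0.989 and 0.952). For Piezo1, Asic1, Tmem63b and Tmem120a they were Ighmbp2, Sgip1, Tmem141 and Park7, at r of 0.967 to 0.988. With this many genes and 8 samples high values arise readily, and none of the 9 genes was itself called between genotypes.

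**Figure D5:**
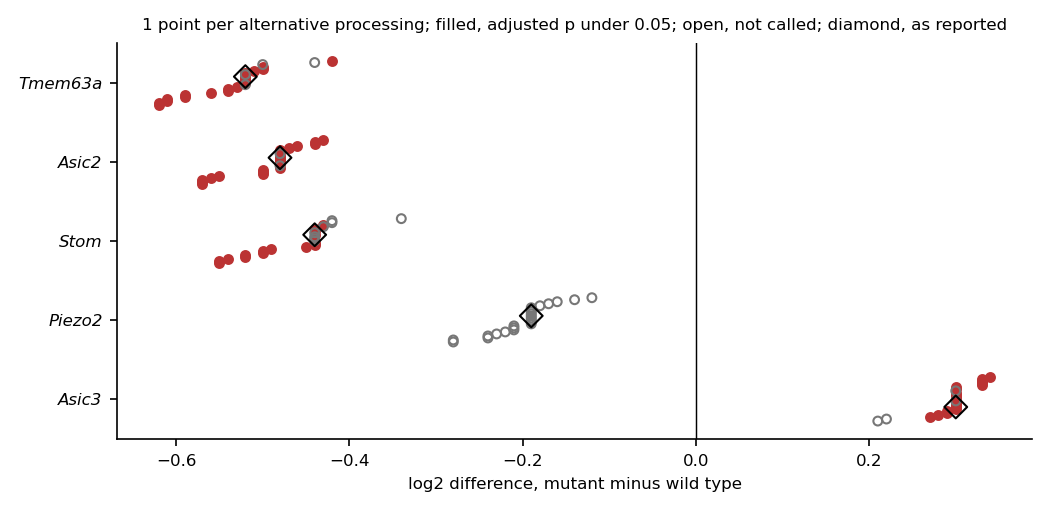
Log2 difference between mutant and wild type (horizontal axis) for Piezo2 and the 4 called genes, with 1 point per alternative analysis; filled points have an adjusted p under 0.05, open points do not, and the diamond is the value as reported. No point crosses 0; Stom is called in 14 of 22 alternatives, Tmem63a and Asic3 in 18 and Asic2 in 20, and Piezo2 in none.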

How the data were processed

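The deposited values are log2 CPM that the authors moderated, meaning that a prior averaging 2 reads was added to library-scaled counts, per the table's name and values; the submitters' processing notes list Salmon 0.11.1, DESeq2 and mm9 with no roles. The same table gives the deposited GC percent of each gene, used for 1 alternative. Identifiers listed more than once (402) had identical values and were used once. All columns shared a floor of -1.79, the value of 0 reads; above it, 100% of values up to 1000 reads were whole multiples of 1 read within 0.1, which gave reads per gene, CPM and library totals. Mutant and wild type were compared with limma 3.58.1 in R 4.3.3 (lmFit, eBayes with trend, two-sided, no covariate), on genes with log2 CPM above 0 in at least 4 of 8 samples, with Benjamini-Hochberg adjustment over all 15030; fold changes understate those of low genes. On simulated reads (dispersion set at 0.02, not estimated), 156 of 198 genes changed by 1 on the log2 scale were recovered among 14855 tested. Of the unchanged genes 8 were called. All tested members differed by less than 1, so recovery at their sizes was not measured. Within-genotype pairs of libraries differed beyond sampling noise (chi-square per degree of freedom 2.61 to 6.64).

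Members and gene lists were chosen with earlier results of these data known. Named are all members, called list genes, the 2 most abundant uncalled genes of each of the 4 channel lists, and the closest-running gene of each member among genes with a mean log2 CPM of at least 3. Some listed genes, though counted, are not reported here. Gene positions and exon lengths are from GENCODE M21 (GRCm38), matched by identifier, not the authors' build; promoters, matched by symbol for the 9 members outside chromosome 18, are from RefSeq (GRCm38.p6). Transcript similarity was measured with blastn 2.17.0. Python 3.11.15, numpy 2.4.6, pandas 2.3.3, scipy 1.17.1 and matplotlib 3.10.9 were used.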

Additional observations from a re-analysis of the deposited data

Results flagged for a closer look

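Among 56 groups of 4 values examined for the named genes and ratios, 3 held a value set well apart from the rest. Chance alone flags about 1 in 20 groups, or 2.8 here. In all 3 cases the sample was wild type 8. It had Stom at 4.40 log2 CPM, while wild types 1, 3 and 4 ran from 4.63 to 4.65. Stoml3 stood at -1.27 there and at the floor of -1.79 elsewhere in the group, a matter of 1 read or none. Its value of Stoml3 minus Stom, which rests on the same 2 levels, was -5.67, and the remaining values were -6.44 to -6.42.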

How the results depend on the processing

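Tmem184b was called in all 22 alternatives, from -4.75 to -4.50. Counts of all genes higher and lower were 423 and 397 as reported. They were 14 and 24 with no filter (40800 genes), 67 and 75 without the variance trend, 204 and 706 when samples were centred on their medians, 229 and 735 with the GC trend removed, and 876 and 612 at an adjusted p under 0.1; quantile normalization gave 270 higher. Leaving out 1 sample at a time gave 174 to 572 higher and 230 to 427 lower. Called members were 0 higher and 0 lower with no filter and without the variance trend, and 0 higher under median centring and GC removal; without 1 sample they were 1 higher in each fit and 1 to 3 lower. The fit without wild type 3 called 1 lower. Lower genes of the 4 channel lists numbered 0 with no filter, 1 without the variance trend, 5 under median centring, 4 with Xist as a covariate and 4 at an adjusted p under 0.1; without 1 sample they ranged from 2 to 3, and higher ones from 0 to 1. The causes were not tested. With genes of at least 1 read in any sample, chosen after seeing the data as was GC removal, 782 genes were called, 725 of them among the 820.

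Numbers 1, 3 and 4 are shared by both genotypes, and the labels do not say whether they pair the samples. Same-numbered deviations correlated at 0.081, 0.041 and 0.058. Differently numbered samples were not compared, so pairing was not tested. A replicate block for these numbers (6 samples) gave 326 higher genes, 345 lower, and calls for the same 4 members. Without the block the 6 samples gave 180 higher and 267 lower.

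Direction turned only in values near 0 that were never called. Piezo1, at 0.05 as reported, was -0.05 under median centring, -0.06 under quantile normalization and -0.03 with GC removal. It was -0.10 without wild type 8 and -0.13 in the 6 samples with or without the replicate block. Without wild type 4 it kept its direction, at 0.25. Asic1 was 0.01 without wild type 8, 0.000 without mutant 2, and 0.03 without mutant 4 and in the 6 samples. Tmem63b was 0.05 under quantile normalization, 0.01 with sample weights, and -0.04 to 0.03 without 1 sample (0.000 without wild type 1). Lhfpl5, at 0.06 as reported, was -0.03 under both scalings, -0.01 with GC removal, -0.07 without wild type 8 and -0.12 in the 6 samples. Without wild type 3 it kept its direction, at 0.19. Anxa6 was 0.01 under quantile normalization and -0.07 to 0.08 without 1 sample (0.000 without wild type 3). Atp2a2 was 0.01 under quantile normalization. The planned edgeR and DESeq2 fits were not run; the reads recovered from the log2 values were tested with voom, which called 814 genes, 787 of them among the 820.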
